A study of Mus musculus with 4 samples.

Results

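The hormone genes of fat other than leptin were followed in the stromal vascular fraction (SVF) of mouse inguinal white adipose tissue (iWAT). The 9 genes were Adipoq, Retn, Cfd, Rbp4, Nampt, Apln, Angptl4, Nrg4 and Fgf21, chosen by symbol for being secreted by fat, and all 9 were among the 26214 gene symbols counted. Animals had received a medicinal herb extract (MHE) or phosphate-buffered saline (PBS), with 2 libraries in each group, which the labels call biological replicates; the library protocol speaks of triplicates, and other libraries were not analysed here. The deposited files of the extract and saline libraries are named by different schemes that the labels do not explain, so any other difference between the groups cannot be told apart from the treatment in the values below. The labels give no genotype, strain, age or diet, and neither the makeup of the extract nor how much of it was given or for how long. SVF is the cell pellet left when digested fat is freed of floating adipocytes, yet adipocyte transcripts were plentiful in it. A list of 16 adipocyte markers that holds none of the 9 hormones made up 4.28% to 10.6% of all counts, compared with 0.0732% to 0.101% for 12 markers of adipocyte progenitors. The libraries held 27161882 to 33391075 counts.

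Adipokines are proteins that fat releases into the blood or to neighbouring cells. Adiponectin (Adipoq), resistin (Retn) and adipsin (Cfd) come in mice largely from mature adipocytes and mark that cell type, and adiponectin acts on liver, muscle and vessels through its own receptors. The others have wider sources: retinol-binding protein 4 (Rbp4) and fibroblast growth factor 21 (Fgf21) are made mainly by the liver, apelin (Apln) also by vessels, and Nampt, an enzyme of NAD synthesis with an extracellular form, by nearly all cells. Angiopoietin-like 4 (Angptl4) blocks lipoprotein lipase, and neuregulin 4 (Nrg4) is a ligand of ErbB receptors.

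The estimates of the 9 genes did not all have the same sign, and differences between the genes were not tested. Apelin fell 4.02-fold, from 27.6 ± 6.96 to 6.87 ± 1.75 CPM (counts scaled to a common library size and for composition; mean ± SD, n = 2 per group), and it alone passed the test (adjusted p = 0.0418). Adipoq, Rbp4, Angptl4 and Fgf21 had log2 fold changes (MHE minus PBS) between -1.20 and -0.97. In each of them both extract libraries lay below both saline libraries, but none passed at an adjusted p of 0.05. On simulated data the test recovered 15.4% of 2-fold changes, so a missing call at this size does not show an unchanged gene. Cfd lay on the other side, with both extract libraries above both saline libraries and a log2 fold change of 0.73 that did not pass. Retn, Nampt and Nrg4 overlapped between the groups.

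Thus 1 of 9 hormone genes was called, where 4.93% of the 16196 genes tested were. It was called lower (background 0.963%), and 0 were called higher (background 3.97%). At these shares, short gene lists such as those below may well hold no call. At an unadjusted p under 0.05 there were 4 of 9 (Adipoq, Rbp4, Apln and Angptl4), against 28.6% of all genes. All 9 passed the low-count filter. The groups did not overlap in 6 of 9 (background 62%), of which 5 were lower with the extract (background 28.9%) and 1 was higher (background 33.1%). Of the 9, 7 had a log2 fold change below 0 (background 51.2%), and the median was -0.97 against -0.02 over all genes tested.

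**Figure D1:**
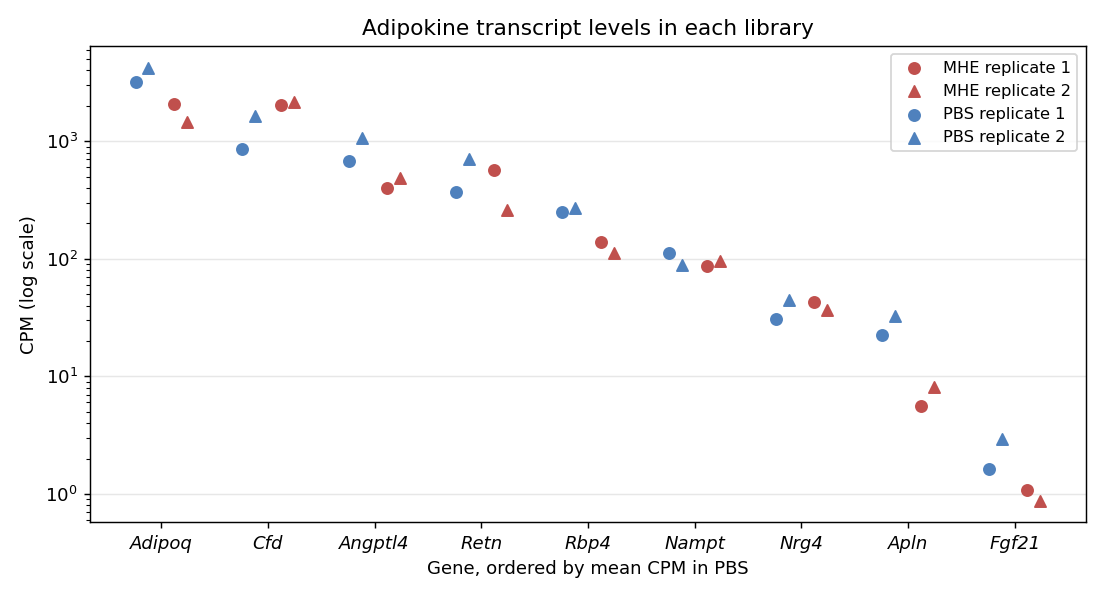
CPM of the 9 hormone genes (log axis) in each of the 4 libraries, with saline libraries to the left and extract libraries to the right of each gene. Apln shows the widest gap between the groups (5.63 and 8.11 CPM against 22.7 and 32.5), while Retn, Nampt and Nrg4 overlap.

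Sequences upstream of 3 of the genes are shown: Apln, the gene that fell, and Adipoq and Cfd, the most abundant hormone genes per length, whose order differed between the groups. Each is the 250 bases before the annotated start in RefSeq's table for GRCm38.p6 (the assembly behind mm10), written 5′ to 3′ on the gene's strand. That table held 8 of the 9 genes, the exception being Angptl4. The regions are chrX:48034854-48035103 (minus strand) for Apln, chr16:23146286-23146535 (plus strand) for Adipoq and chr10:79890603-79890852 (plus strand) for Cfd. Capitals mark matches on either strand to 1 of 5 short motifs, none of which overlap here. The motifs are the TATA box TATAAA, the CCAAT box, the GC box GGGCGG, the nuclear receptor element AGGTCA and the sequence ACGTG.
Apln: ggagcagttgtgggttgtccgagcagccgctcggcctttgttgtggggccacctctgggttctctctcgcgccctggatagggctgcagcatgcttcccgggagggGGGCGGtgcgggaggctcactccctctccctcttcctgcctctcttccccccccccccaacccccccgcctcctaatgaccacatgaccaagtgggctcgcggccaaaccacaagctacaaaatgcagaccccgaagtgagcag
Adipoq: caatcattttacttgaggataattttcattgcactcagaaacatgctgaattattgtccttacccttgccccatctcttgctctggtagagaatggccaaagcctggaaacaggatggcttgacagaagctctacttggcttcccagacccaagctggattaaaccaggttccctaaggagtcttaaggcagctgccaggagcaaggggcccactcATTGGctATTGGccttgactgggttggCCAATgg
Cfd: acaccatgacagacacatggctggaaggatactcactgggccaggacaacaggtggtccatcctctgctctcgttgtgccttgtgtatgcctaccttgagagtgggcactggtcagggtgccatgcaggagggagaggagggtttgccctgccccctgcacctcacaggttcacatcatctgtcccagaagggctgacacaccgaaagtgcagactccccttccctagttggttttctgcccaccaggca

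The Adipoq window held CCAAT or its reverse complement ATTGG at 34, 27 and 7 bases before the start, and 33.8% of 32851 windows of this length held that motif. The Apln window held GGGCGG at 144 bases before the start, a motif found in 32.7% of windows. No letters of the Cfd window matched any of the 5 motifs. The TATA box, the nuclear receptor element and ACGTG, found in 12.4%, 14.0% and 16.6% of windows, were in none of these 3.

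Levels of different genes were compared as CPM per kilobase of the longest RefSeq transcript. With saline, Adipoq stood highest at 2865 ± 580 CPM per kilobase (SD, n = 2 here and below), followed by Cfd at 1355 ± 605, Retn at 476 ± 212, Angptl4 at 262 ± 81.8 and Rbp4 at 225 ± 13.2. With the extract, Cfd came first at 2254 (2187 and 2321 in the libraries) and Adipoq second at 1369 ± 335, and the 2 libraries of one gene did not reach into the range of the other in either group. Retn (366 ± 193 CPM per kilobase), Angptl4 (133 ± 18.6) and Rbp4 (108 ± 16.1) kept their order. Nampt and Nrg4 followed at 19.6 to 22.1 CPM per kilobase in group means, with overlapping ranges in both groups, and the ranges of Angptl4 and Rbp4 overlapped with saline. Apln (8.76 ± 2.21 with saline, 2.18 ± 0.557 with the extract) and Fgf21 (2.38 ± 0.953 and 1.03 ± 0.153) were lowest. Together the 9 genes took 0.571% and 0.483% of counts in MHE replicates 1 and 2, and 0.549% and 0.716% in PBS replicates 1 and 2.

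Adiponectin is the most abundant hormone of fat and is built from trimers folded in the endoplasmic reticulum. Adipoq (chromosome 16, 23146536 to 23157968) had 2075 and 1462 CPM in MHE replicates 1 and 2 and 3172 and 4230.45 CPM in PBS replicates 1 and 2. The higher extract library thus lay below the lower saline library. Its log2 fold change was -1.07 ± 0.41 (SE), with a 95% interval of -2.12 to -0.01 and an adjusted p of 0.172. The adipocyte marker list was lower as well, with a summed level of 40021 and 55623 CPM in the extract libraries and 63749 and 119178 CPM in the saline libraries, and its part in the lower Adipoq was not tested. Scd1, a fatty acid desaturase whose groups overlapped, made up much of that sum (12294.5 and 34729.8 against 28610.0 and 64574.9 CPM). Of the 16 markers, 10 lay lower without overlap (background 28.9%) and 1 of them passed, Lep, while Adrb3, an adrenergic receptor of adipocytes, rose from 42.1 and 40.1 to 96.6 and 128 CPM (1.45 ± 0.23, adjusted p = 0.0424), and the fatty acid activating enzyme Acsl1 lay higher without passing (0.23 ± 0.28). In bulk RNA, fewer adipocytes and less transcript per adipocyte cannot be told apart.

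Neither adiponectin receptor gene passed, and the 2 were not tested against each other. Adipor1 had 174 and 144 CPM with the extract and 203 and 213 CPM with saline (log2 fold change -0.39 ± 0.24), and Adipor2 had 583 and 691 against 571 and 736 CPM (-0.04 ± 0.31, 95% interval -0.83 to 0.76). Cdh13, which encodes T-cadherin, an anchor for adiponectin on vessel walls, had 32.6 and 48.2 against 60.5 and 119 CPM (-1.15 ± 0.40, adjusted p = 0.148), and passed with DESeq2 (0.0431) and without PBS replicate 1 (0.00726). Of 7 genes of adiponectin folding and secretion, 0 passed (background 4.93%), with a median log2 fold change of -0.29. The smallest p belonged to Sel1l, part of the disposal machinery for misfolded proteins (-0.69 ± 0.33, adjusted p = 0.236), the disulfide isomerase P4hb (-0.51 ± 0.27, 0.284) and the oxidase Ero1a (-0.29 ± 0.20, 0.391).

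Genes of the C1q/TNF family, whose products share adiponectin's globular fold, gave no call. Of 9 tested, 0 passed (background 4.93%), with a median log2 fold change of -0.84 against -0.02 over all genes tested. All 9 had log2 fold changes under 0 (background 51.2%), and 5 lay lower without overlap of the groups (background 28.9%). C1qtnf12 stood at 19.96 and 15.7 against 46.9 and 30.5 CPM (-1.12 ± 0.29, adjusted p = 0.0902), C1qtnf7 at 9.54 and 8.32 against 18.9 and 15.1 CPM (-0.93 ± 0.25, 0.0953) and C1qtnf9 at 45.7 and 32.5 against 63.9 and 89.1 CPM (-0.97 ± 0.28, 0.111). With DESeq2 C1qtnf12, C1qtnf7 and C1qtnf9 each passed (0.0136, 0.0310 and 0.0284), as did C1qtnf12 without PBS replicate 2 (0.0114) and C1qtnf9 without PBS replicate 1 (0.0240).

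Adipsin is a serine protease of the alternative complement pathway, where it cleaves factor B. Cfd (chromosome 10, 79890853 to 79892655) had 2016 and 2140 CPM with the extract and 854 and 1644 CPM with saline. The extract libraries were close to each other and above both saline libraries, which differed 1.92-fold between themselves. A log2 fold change of 0.73 ± 0.44 (95% interval -0.39 to 1.86, adjusted p = 0.327) became 0.32 when PBS replicate 1 was left out and 1.29 when PBS replicate 2 was. Counted per Adipoq read, Cfd gave 0.972 and 1.46 with the extract against 0.269 and 0.389 with saline, without overlap of the groups. Retn, Nrg4 and Nampt also lay higher per Adipoq read without overlap, Apln lay lower, and Angptl4 and Rbp4 overlapped. The Adipoq denominator was itself lower with the extract, so a higher ratio was not particular to Cfd. No share over all genes was computed on this scale. Adipoq was taken as the denominator after values were seen, and no test was made, since 2 libraries a group allow an exact two-sided permutation p of 0.333 at the lowest.

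The partners of adipsin gave no call. Of 6 genes of the alternative complement pathway, 0 passed (background 4.93%). Their median log2 fold change of -0.49 turned to 0.65 without PBS replicate 1. Properdin (Cfp), which stabilises the pathway's convertase, had 99.9 and 116 against 64.7 and 56.3 CPM (0.83 ± 0.21, adjusted p = 0.0861), and passed with DESeq2 (0.0189). Cfb, the substrate of adipsin, had 224 and 300 against 308 and 415 CPM (-0.46 ± 0.31, 0.371). C3ar1, the receptor of the C3a fragment, ranged from 16.1 CPM in MHE replicate 1 to 169 CPM in PBS replicate 1, with 63.6 and 44.6 CPM in the others (-1.42 ± 0.87, 0.336). The summed macrophage markers, 12 genes each detected, stood at 2413, 2988, 4087 and 1839 CPM in MHE replicates 1 and 2 and PBS replicates 1 and 2, and their part in the C3ar1 values was not tested.

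Resistin is a cysteine-rich hormone that in mice comes from adipocytes. Retn (chromosome 8, 3655770 to 3659818) had 572 and 261 CPM with the extract and 371 and 712 CPM with saline. Replicates of a group differed 2.19-fold with the extract and 1.92-fold with saline, and the groups overlapped. Its log2 fold change of -0.38 ± 0.53 had a 95% interval of -1.73 to 0.98 (adjusted p = 0.666). The direction turned without MHE replicate 2 (0.09) and without PBS replicate 2 (0.18). Its relative Retnla, a secreted product of alternatively activated macrophages as well as of fat, had 152 and 114 against 134 and 249 CPM (-0.52 ± 0.37, adjusted p = 0.399). Retnlg, the only other relative with reads, did not pass the filter, and Retnlb had 0 counts in the 4 libraries. The proposed resistin receptors Cap1 (0.25 ± 0.26) and Tlr4 (-0.25 ± 0.25) did not pass (adjusted p = 0.561 and 0.547).

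Retinol-binding protein 4 carries vitamin A in the blood. Rbp4 (chromosome 19, 38116620 to 38125321) had 139 and 112 CPM with the extract and 251 and 272 CPM with saline. The replicates were close to each other and the groups stood well apart. The difference was -1.06 ± 0.25 in log2 (95% interval -1.68 to -0.43) at an adjusted p of 0.0745, and it passed without PBS replicate 1 (-1.13, 0.0422). The 6 hepatocyte markers, among them albumin (Alb), summed to 19.4 and 16.7 CPM with the extract and 6.86 and 17.7 CPM with saline. Alb alone had 15.1 and 14.3 against 2.53 and 13.6 CPM, and only 2 of the 6 markers passed the low-count filter. The part of these markers in the Rbp4 values was not tested.

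Of 14 genes of retinol handling, 13 were tested, 1 was higher (background 3.97%) and 0 were lower (background 0.963%). The median log2 fold change was -0.61. The retinoic acid receptor gene Rara rose from 14.4 and 16.6 to 34.7 and 32.8 CPM (1.12 ± 0.20, adjusted p = 0.0487), a call that was lost with median-of-ratios factors (0.0514), with the replicate number as a block (0.0576) and without PBS replicate 1 (0.0542). The retinaldehyde dehydrogenase Aldh1a1 had 173 and 180 against 423 and 510 CPM (-1.40 ± 0.27, adjusted p = 0.0537), and Aldh1a3 had 5.75 and 11.7 against 51.8 and 27.7 CPM (-2.19 ± 0.48, 0.0688). Aldh1a1 passed with the replicate number as a block (0.0488), the stricter filter (0.0480), limma-voom (0.0403), DESeq2 (1.17e-06) and without PBS replicate 1 (0.0158) or 2 (0.0333). Aldh1a3 passed with DESeq2 (0.000220) and without PBS replicate 1 (0.0318) or 2 (0.00495). The membrane receptors Stra6 (1.38 ± 1.00) and Stra6l (-0.77 ± 0.88) stood under 5 CPM in all 4 libraries and did not pass. Summed T cell markers rose with Rara, from 32.6 and 11.1 to 778 and 599 CPM over 8 genes that all passed, and their part in that rise was not tested.

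Nampt makes nicotinamide mononucleotide, the step that limits NAD recycling. Nampt (chromosome 12, 32820335 to 32853369) had 87.7 and 95.7 CPM with the extract and 111 and 88.4 CPM with saline, so the groups overlapped. The log2 fold change was -0.12 ± 0.22, with a 95% interval of -0.69 to 0.44 (adjusted p = 0.739), and it changed sign under library totals alone (0.029), a scaling that moves all genes by 0.16 on the log2 scale, and without PBS replicate 1 (0.037). Of 13 other genes of NAD synthesis and use, 2 rose (background 3.97%) and 0 fell (background 0.963%), with a median of 0.10. Both consume NAD: Cd38, an ectoenzyme of lymphocytes, rose from 22.1 and 29.4 to 62.7 and 64.2 CPM (1.30 ± 0.22, adjusted p = 0.0454), and the DNA repair polymerase Parp1 from 46.9 and 45.1 to 116 and 96.5 CPM (1.21 ± 0.21, 0.0457). Cd38 and Parp1 were higher alongside the lymphocyte markers, with summed B cell markers at 1809 and 1482 CPM against 104 and 8.96 CPM, and the part of these cells was not tested. Neutrophils are a known source of Nampt. The 8 neutrophil markers summed to 41.7 and 26.0 CPM with the extract and 19.96 and 10.9 CPM with saline. Ly6g stood at 0 in all libraries. Of 5 tested, 4 had log2 fold changes above 0 and 1 below. Much of the higher sum was Cxcr2 (17.2 and 13.2 against 0.505 and 0.608 CPM). S100a8 went the other way, with 6.56 and 1.33 against 9.75 and 5.24 CPM. The part of neutrophils in the Nampt values was not tested.

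Apelin is a small peptide that acts on a G protein-coupled receptor of vessels and heart. Apln (chromosome X, 48025146 to 48034853) had 187 and 231 counts in MHE replicates 1 and 2 and 628 and 962 in PBS replicates 1 and 2, or 5.63 and 8.11 against 22.7 and 32.5 CPM. Replicates differed 1.44-fold in the extract group and 1.43-fold in the saline group, and the groups were far apart. The log2 fold change was -2.01 ± 0.32 (95% interval -2.81 to -1.20, adjusted p = 0.0418), a 4.02-fold lower level. It was -1.75 without MHE replicate 1 (adjusted p = 0.333) and -2.28 without MHE replicate 2 (0.275), fits in which no gene of the table passed, and it passed without either saline library.

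The apelin receptor gene lay lower along with its ligand. Aplnr had 15.4 and 19.2 CPM with the extract and 35.2 and 50.5 CPM with saline, a log2 fold change of -1.31 ± 0.27 with a 95% interval of -1.99 to -0.63 (adjusted p = 0.0589). Aplnr passed without PBS replicate 1 (-1.57, adjusted p = 0.00591), with the replicate number as a block (-1.30, 0.0462) and with DESeq2 (-1.35, 0.00172). Blood endothelial markers, 10 genes each detected, summed to 1052 and 1055 CPM with the extract and 1215 and 2178 CPM with saline. Their median log2 fold change was -0.73, and 0 of 10 passed (background 4.93%). Of the 10, 4 lay lower without overlap of the groups (background 28.9%) and 0 higher (background 33.1%). Single markers ran from -0.02 (Egfl7) to -1.13 (Cldn5), with Cdh5 at -1.11 and Esam at -1.04. Their part in the Apln and Aplnr values was not tested.

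**Figure D2:**
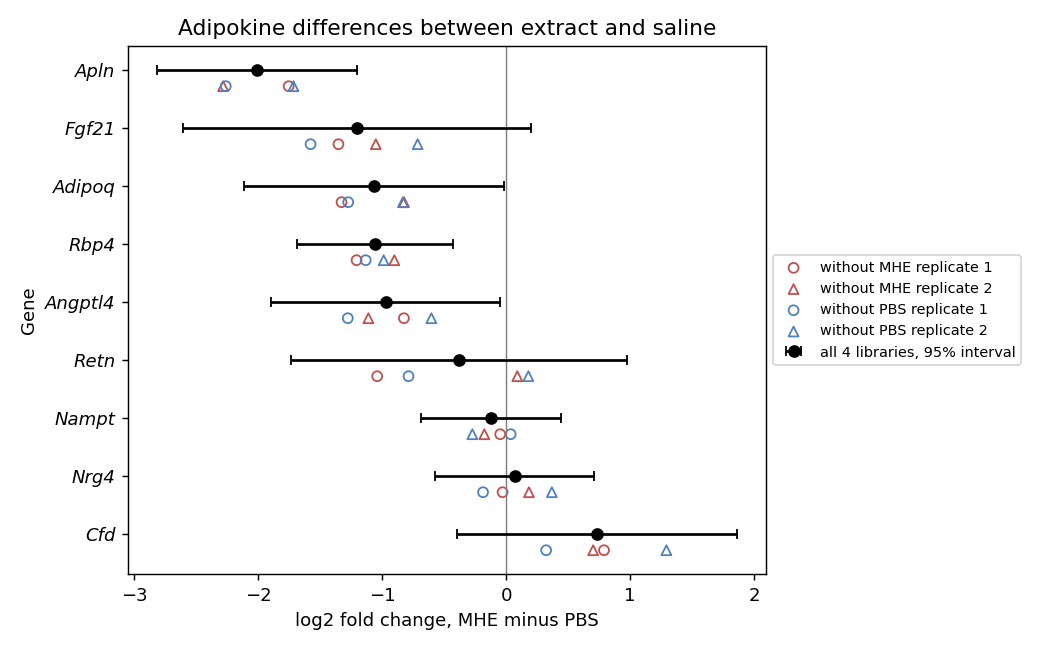
Log2 fold change (MHE minus PBS) of each hormone gene with its 95% interval (black), and below it the value after leaving out each library in turn (open symbols). Apln lies between -2.28 and -1.71 in all 4 reduced fits, while Retn, Nampt and Nrg4 cross 0.

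Angiopoietin-like 4 is released on fasting and lets fat hold back the uptake of circulating triglyceride by inactivating lipoprotein lipase. Angptl4 (chromosome 17, 33774900 to 33781575) had 398 and 485 CPM with the extract and 674 and 1057 CPM with saline. No extract library reached the saline range. The log2 fold change was -0.97 ± 0.36 (95% interval -1.89 to -0.05, adjusted p = 0.161), with -1.28 without PBS replicate 1 and -0.60 without PBS replicate 2. Its target enzyme Lpl had 2193 and 4819 against 8099 and 12439 CPM (-1.55 ± 0.58, adjusted p = 0.164), and Gpihbp1, the endothelial anchor of that enzyme, had 104 and 76.6 against 132 and 207 CPM (-0.91 ± 0.32, 0.148). None of Angptl4, Lpl and Gpihbp1 passed, and each lay lower without overlap of the groups, as did 28.9% of all genes tested. Angptl4 and Lpl passed with DESeq2 (0.0236 and 0.00627), and Gpihbp1 passed without PBS replicate 1 (0.0296).

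Of 6 relatives of Angptl4, 0 passed (background 4.93%), with a median log2 fold change of -0.25 and values on both sides of 0. Angptl7 had 6.92 and 3.97 against 0.794 and 0.946 CPM (2.64 ± 0.49, adjusted p = 0.0511), and Angptl7 passed under library totals alone (0.0454), the stricter filter (0.0458), no filter (0.0496), DESeq2 (0.000257) and without PBS replicate 1 (0.0161) or 2 (0.0111). Angptl2 had 41.5 and 86.1 against 87.1 and 152 CPM (-0.91 ± 0.46, 0.258).

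**Figure D3:**
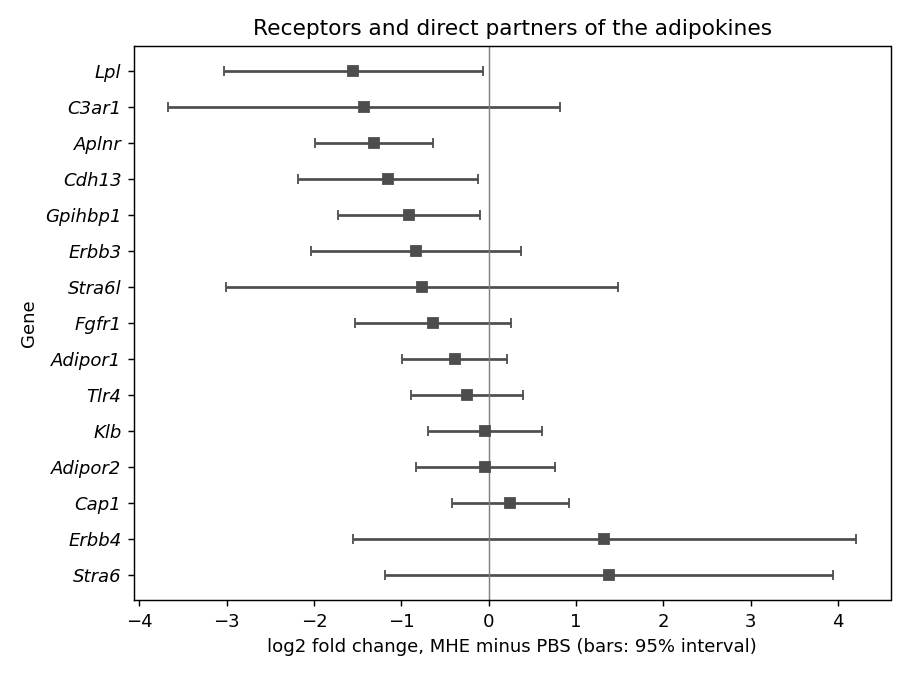
Log2 fold change (MHE minus PBS) with 95% intervals for 15 receptors and direct partners of the hormones, ordered by value. None passed the test (background 4.93%). Of the 15, 12 lie below 0 (background 51.2%), with Lpl lowest at -1.55. The groups did not overlap for 7 that were lower (background 28.9%) and 2 that were higher (background 33.1%). The sparsely counted Stra6 and Erbb4 have the widest intervals.

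Neuregulin 4 is known as a signal of brown and beige fat to the liver. Nrg4 (chromosome 9, 55220222 to 55283654) had 42.6 and 36.7 CPM with the extract and 30.9 and 44.6 CPM with saline, and both extract values fell within the saline range. Its log2 fold change was 0.07 ± 0.25 (95% interval -0.57 to 0.71, adjusted p = 0.877), and its sign turned without MHE replicate 1 (-0.03) and without PBS replicate 1 (-0.19). Exons of Nrg4 overlap those of Fbxo22 on the opposite strand and a pseudogene model, and since the use of strand in counting is not given, reads there cannot be assigned. The ErbB receptors were sparse: Erbb3 had 4.39 and 4.84 against 11.5 and 4.97 CPM (-0.83 ± 0.47) and Erbb4 had 0.217 to 2.39 CPM (1.33 ± 1.13), and neither passed (adjusted p = 0.301 and 0.474), although Erbb3 passed without PBS replicate 2 (0.0412). Of the other neuregulins, Nrg2 (0.79 ± 0.54, adjusted p = 0.376) and Nrg1 (0.08 ± 1.10, 0.967) did not pass and Nrg3 was not tested.

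Fibroblast growth factor 21 signals through Fgfr1 together with the co-receptor beta-klotho (Klb), which fat carries. Fgf21 (chromosome 7, 45613890 to 45615490) was the scarcest of the hormones, with 36 and 25 counts with the extract and 45 and 86 with saline. The exact 95% Poisson intervals, which cover counting error only, ran from 25.2 to 49.8 and 16.2 to 36.9 counts with the extract and from 32.8 to 60.2 and 68.8 to 106 with saline. On the CPM scale it had 1.08 and 0.878 against 1.62 and 2.91, without overlap. The log2 fold change was -1.20 ± 0.55 (95% interval -2.61 to 0.20, adjusted p = 0.222), and it was -0.71 without PBS replicate 2. Klb had 31.3 and 41.2 against 31.7 and 43.0 CPM (-0.04 ± 0.26), and Fgfr1 had 71.5 and 132 against 143 and 173 CPM (-0.64 ± 0.35, adjusted p = 0.291).

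Of 9 further fibroblast growth factors, 6 were tested and 2 fell (background 0.963%), with a median log2 fold change of -0.61. Fgf1, a paracrine factor of adipose remodelling, fell from 114 and 121 to 21.5 and 24.9 CPM (-2.34 ± 0.21, adjusted p = 0.0210). Fgf9 fell from 2.78 and 2.74 to 0.241 and 0.105 CPM (-3.95 ± 0.65, adjusted p = 0.0431), a call lost with the replicate number as a block (0.0622). Both lost their calls without either extract library, as did every gene of the table.

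The hormones were next set against the adipocyte markers of the same library, as counts per 1000 counts of the 16 markers, with no test. Adipoq then had 51.8 and 26.3 with the extract and 49.8 and 35.5 with saline, and Angptl4 had 9.94 and 8.71 against 10.6 and 8.87, so both overlapped between the groups. Rbp4, Retn, Nampt and Fgf21 overlapped as well. Cfd had 50.4 and 38.5 against 13.4 and 13.8, a ratio of means of 3.27. Nrg4 had 1.06 and 0.660 against 0.485 and 0.375, a ratio of 2.01. The marker sum was itself lower with the extract, so a gene unchanged in CPM rises on this scale. In CPM Nrg4 overlapped between the groups, with a log2 fold change of 0.07. No share over all genes was computed per marker count. Apln stayed lower on this scale, with 0.141 and 0.146 against 0.356 and 0.273, a ratio of 0.456. Scd1 is the most abundant marker in 3 of the 4 libraries and Lep the one with the lowest log2 fold change, and without both, a choice made after seeing the data, the ratios were 2.97 for Cfd, 1.79 for Nrg4 and 0.440 for Apln, and Adipoq (77.0 and 72.2 against 101 and 86.0) and Fgf21 (0.0402 and 0.0433 against 0.0518 and 0.0591) no longer overlapped between the groups.

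**Figure D4:**
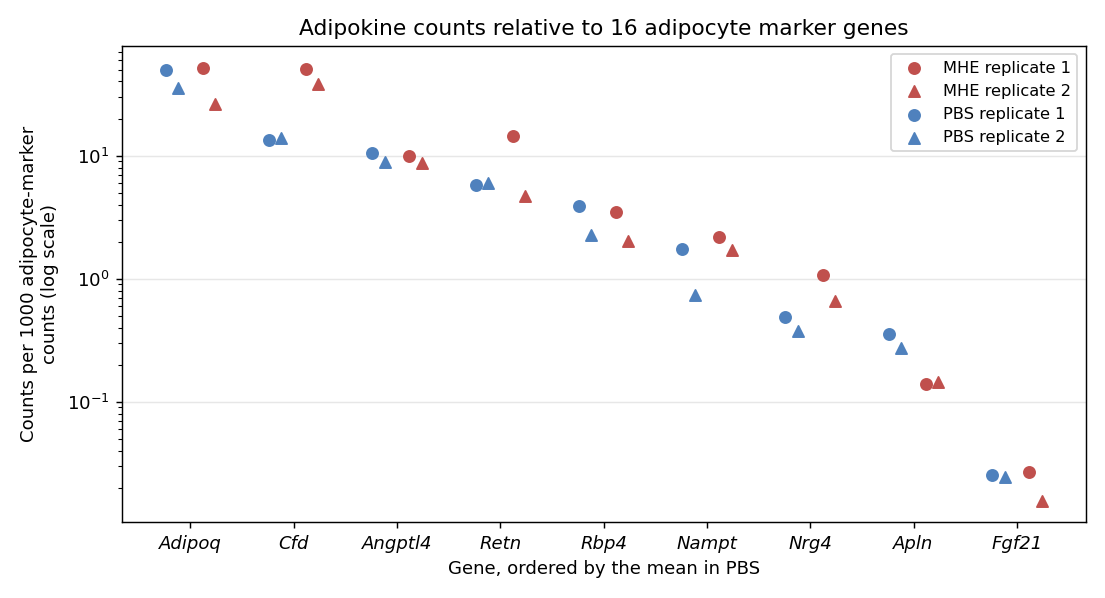
Counts of each hormone gene per 1000 counts of 16 adipocyte markers (log axis) in each library. Cfd and Nrg4 lie higher in both extract libraries, Apln lies lower in both, and the other 6 overlap between the groups. The marker sum is itself lower with the extract, and in CPM Nrg4 overlaps between the groups.

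The summed levels of other tissue markers also differed between the groups, and their part in the hormone values was not tested. Summed smooth muscle and pericyte markers stood at 548 and 896 CPM with the extract and 2997 and 3238 CPM with saline. Of the 8, 0 passed (background 4.93%) and 3 lay lower without overlap of the groups (background 28.9%). The makeup of the sum differed between PBS replicates 1 and 2. Cnn1 had 338 and 2.40 CPM there, Myh11 521 and 66.6, Des 210 and 19.9, and Acta2 1025 and 2214. Skeletal muscle markers summed to 61.9 and 165 against 304 and 1177 CPM, most of it Acta1, a skeletal actin (52.9 and 155 against 266 and 1174 CPM). By gene that list went both ways, with a median log2 fold change of 1.08 and 4 of 8 below 0 (background 51.2%). Of the 8, 1 was called higher (background 3.97%) and 0 lower (background 0.963%). This was the myosin gene Myh4, with 0.108 and 0.0338 CPM in saline (3 and 1 counts) and 2.08 and 1.47 CPM with the extract (4.58 ± 0.81, adjusted p = 0.0486). With no filter, with the replicate number as a block and with limma-voom, 0 genes of the list were called higher, so its call was lost there. Markers of lymph node stroma stood at 813 and 478 against 143 and 14.5 CPM. Epithelial markers reached 213 CPM in PBS replicate 1 and at most 7.27 CPM in the other libraries.

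Among 30 other secreted factors of fat, 26 were tested, 2 fell (background 0.963%) and 0 rose (background 3.97%). The median log2 fold change was -1.05. Leptin (Lep), the hormone of energy stores, had 762 and 633 CPM with the extract and 3764 and 5411 CPM with saline (-2.72 ± 0.42, adjusted p = 0.0409). Sfrp5, a secreted decoy of Wnt ligands, fell from 622 and 833 to 114 and 136 CPM (-2.54 ± 0.32, adjusted p = 0.0279).

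Transcription factors known to act on adipokine genes showed no call. Of 18 tested, 0 passed (background 4.93%), and the median log2 fold change was -0.07, or 0.09 under library totals alone. The smallest p belonged to the glucose-sensing factor Mlxipl (-1.11 ± 0.39, adjusted p = 0.149), to Stat5a (0.44 ± 0.20, 0.213) and to Cebpb (-0.58 ± 0.32, 0.292). Pparg, the master regulator of adipocytes and a direct activator of Adipoq and Angptl4, had 101 and 111 against 131 and 138 CPM (-0.35 ± 0.20, adjusted p = 0.319).

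For each hormone gene the gene of most similar pattern was taken as the one with the smallest Euclidean distance between centred log2 CPM over the 4 libraries, among 10659 genes whose mean log2 CPM reached 3. The nearest were Reep5 to Adipoq (distance 0.0421), Il17rd to Angptl4 (0.0309), Nnt to Nampt (0.0335), Cldn5 to Fgf21 (0.0615), Ccnd3 to Nrg4 (0.0694) and Adh1 to Rbp4 (0.0695). Paqr3 was nearest to Cfd (0.105), Lgr4 to Apln (0.126) and Ppp1r1a to Retn (0.171). With 4 libraries and this many candidates, such a distance describes these libraries only.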

How the data were processed

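Each library has 1 file of raw read counts by gene symbol, deposited as whole numbers. Build mm10 and the tools TopHat2, edgeR and limma are named in the submitters' processing notes, without versions or roles. The counting program, annotation and strand use are not stated in those sources. Symbols were matched to RefSeq's GRCm38.p6 table (26167 of 26214), and transcript lengths came from GENCODE M21 transcripts with a RefSeq identifier.

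With edgeR 4.0.16 in R 4.3.3, all genes kept by filterByExpr (minimum count 10, total 15) were fitted with TMM factors and a robust quasi-likelihood test, with Benjamini-Hochberg adjustment over 16196 genes and a threshold of 0.05. The SE was taken from the size of the log2 fold change and its F statistic, and 95% intervals use the fitted degrees of freedom. The fit was tested on simulated data in 3 draws. It recovered 15.4% of 2-fold, 68.7% of 4-fold and 93.4% of 16-fold changes. Other settings tried were DESeq2 1.42.0, limma-voom (limma 3.58.1), scaling by median-of-ratios factors or by library totals, no filter or a stricter one (CPM of 1 in 2 libraries and a total of 50), a block for the replicate number, and leaving out 1 library at a time.

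The members and lists (12 of pathways, 12 of markers) were chosen with earlier results of these data known. Of each list, genes past the threshold or otherwise up to 3 with the smallest p are named, with the receptors and partners of each hormone. A gene that this rule names is not reported here. Alb, Ly6g, Pparg and the remaining genes outside that rule were named as markers or known regulators. P-values of the main test weigh the group difference against the spread between 2 libraries per group. That spread was moderated with values from other genes (median prior degrees of freedom 3.13).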

Additional observations from a re-analysis of the deposited data

How the results depend on the processing

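Apln remained lower in all 11 alternatives, between -2.28 and -1.71 in log2 fold change, and lost its call only where an extract library was left out (adjusted p = 0.333 and 0.275). Leaving out each library gave 0 to 2750 called genes (799 with all) and 0 to 2 called hormone genes (1 with all). In the fits without MHE replicate 1 or 2, which called 0 genes by edgeR's quasi-likelihood test, 2352 and 2596 genes had an unadjusted p under 0.05, and the lone extract library was assumed to vary like the saline group. DESeq2 called 2951 genes and 4 hormone genes: beside Apln these were Adipoq (-1.10, adjusted p = 0.0078), Rbp4 (-1.09, 0.000688) and Angptl4 (-1.01, 0.0236). Rbp4 ranged from -1.21 to -0.90 over the left-out libraries and passed at -1.13 without PBS replicate 1.

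Retn ranged from -1.04 to 0.18 over the left-out libraries, with 0.09 and 0.18 on the other side of 0, Nrg4 from -0.19 to 0.37, with -0.03 as its other reversed value. Nampt ranged from -0.27 to 0.037 (the latter without PBS replicate 1) and had a log2 fold change of 0.029 under library totals alone. With the replicate number as a block, 764 genes and 1 hormone gene passed. Same-numbered libraries deviated together at r = 0.12 over genes, and with 2 pairs the number is not known to pair them. The share of higher calls was 80.5% with all libraries in edgeR and 58.1% with DESeq2, and 63.7% and 50.9% without PBS replicate 1 and 2. The cause of these shifts was not tested. Fgf21, with 25 to 86 counts, is the hormone gene most limited by depth.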
